A study of Mus musculus with 18 samples.

Results

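The regions described here are 13125 tiles of the mouse genome that hold few measured CpGs and little methylation. A tile is a window of 1000 bp on genome build mm9. Only CpGs covered by 5 or more reads in every one of the 18 libraries counted, and a sparse unmethylated tile was an autosomal tile with 3 to 9 such CpGs and a mean methylation level under 20% over the 18 libraries. These members made up 22.3% of the 58868 autosomal tiles with 3 to 9 CpGs and 17.0% of the 77064 tiles tested, and they held 69694 of the 711980 CpGs kept. The methylation level of a tile is the share of its reads that are methylated, in percent, and differences between levels are in percentage points. Because the mean level chose the members, their low level is a description and was not tested.

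DNA came from mammary epithelium of C57BL/6 female mice, read by multiplexed reduced representation bisulfite sequencing, in which the enzyme MspI cuts at CCGG and bisulfite converts unmethylated cytosine. Purified mammary epithelial stem cells, luminal progenitor cells and mature luminal cells were each taken at 6 stages: virgin mice of week 3 and week 9, pregnant mice of day 10, day 16 and day 19, and retired breeders. Every cell type and stage gave 1 library, so each cell type had 2 virgin, 3 pregnant and 1 retired library, and stages of one reproductive state stood in for replicates. All mice carried the same strain background, and the labels name no transgene, deletion or drug. The labels do not give the number of animals behind a library, so p-values measure the spread between these libraries. Purity could not be checked, because the files hold methylation and not expression, and 0 of 5 marker genes for blood, fibroblasts and endothelium had a start site that could be placed.

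In mammals most CpGs are methylated, and the main exceptions are CpG islands, which are dense in CpGs and often lie at gene promoters, and distal regulatory elements, which are poorer in CpGs. Methylation at island promoters is low in nearly all tissues, while levels at distal elements and island edges vary more between cell types. In the mammary gland, pregnancy drives expansion and differentiation of the epithelium.

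RefSeq promoter windows (250 bases before to 50 after a gene's start, from the GRCm38.p6 table) were placed on mm9 by matching their CpG spacing to the CpG positions in the files. Of 32851 windows, 5014 could be placed, for 4532 genes, and 880 sparse unmethylated tiles held the start site of 918 genes. The sequences below show why a tile in or beside a CpG-rich promoter can count as sparse. Each is printed 5′ to 3′ on the strand of its gene, in lower case. Capitals mark the CpGs that had 5 reads in every library and so entered the tile, and the other CpGs of the window (written cg) did not. Ckm, at chr7:19996193-19996492 on the plus strand, and Snx22, at chr9:65917489-65917788 on the minus strand, had the largest fall and the largest rise with pregnancy in stem cells among start-site tiles.
Ckm: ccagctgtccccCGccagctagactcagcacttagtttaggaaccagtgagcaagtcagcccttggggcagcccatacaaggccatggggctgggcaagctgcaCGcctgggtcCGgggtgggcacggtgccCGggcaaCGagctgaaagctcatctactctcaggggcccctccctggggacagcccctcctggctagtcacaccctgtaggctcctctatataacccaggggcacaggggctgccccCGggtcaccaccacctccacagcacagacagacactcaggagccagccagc
Snx22: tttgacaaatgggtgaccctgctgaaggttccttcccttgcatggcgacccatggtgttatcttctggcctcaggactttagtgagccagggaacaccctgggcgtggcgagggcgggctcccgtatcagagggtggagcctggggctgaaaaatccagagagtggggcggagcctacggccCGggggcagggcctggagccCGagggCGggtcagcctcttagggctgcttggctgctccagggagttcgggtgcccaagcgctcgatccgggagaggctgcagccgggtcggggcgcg
Dnmt3a, at chr12:3891494-3891793 (plus), is the only gene of the marker and pathway lists with a placed start site in a sparse unmethylated tile.
Dnmt3a: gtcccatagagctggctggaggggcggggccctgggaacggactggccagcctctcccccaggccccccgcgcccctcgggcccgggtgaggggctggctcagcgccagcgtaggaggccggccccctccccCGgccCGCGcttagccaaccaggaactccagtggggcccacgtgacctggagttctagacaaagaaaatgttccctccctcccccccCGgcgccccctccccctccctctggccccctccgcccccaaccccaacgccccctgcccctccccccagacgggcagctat
Clcn4, at chr7:7252219-7252518 (minus), lies in the tile with the most reads among those under 0.5%, Cldn7, at chr11:69778673-69778972 (plus), codes for a claudin of epithelial tight junctions, and Mmp11, at chr10:75395198-75395497 (minus), codes for a matrix metalloproteinase.
Clcn4: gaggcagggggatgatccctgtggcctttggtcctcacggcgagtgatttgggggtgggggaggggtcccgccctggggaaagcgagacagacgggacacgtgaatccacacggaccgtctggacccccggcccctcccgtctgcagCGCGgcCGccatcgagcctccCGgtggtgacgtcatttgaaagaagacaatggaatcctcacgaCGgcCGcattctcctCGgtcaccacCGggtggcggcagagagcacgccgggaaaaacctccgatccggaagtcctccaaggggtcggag
Cldn7: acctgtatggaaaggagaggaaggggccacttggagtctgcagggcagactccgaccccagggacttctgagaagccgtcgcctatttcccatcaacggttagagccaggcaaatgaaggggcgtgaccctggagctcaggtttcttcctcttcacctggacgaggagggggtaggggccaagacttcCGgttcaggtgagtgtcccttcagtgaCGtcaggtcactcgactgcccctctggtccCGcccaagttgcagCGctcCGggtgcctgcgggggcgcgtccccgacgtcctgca
Mmp11: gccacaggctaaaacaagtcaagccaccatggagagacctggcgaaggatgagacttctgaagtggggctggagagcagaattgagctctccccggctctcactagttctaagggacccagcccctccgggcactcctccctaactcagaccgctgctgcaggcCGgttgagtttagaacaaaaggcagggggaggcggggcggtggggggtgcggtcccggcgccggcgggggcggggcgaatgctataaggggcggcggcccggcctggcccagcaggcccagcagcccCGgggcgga

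In the Ckm window 6 of 7 CpGs were measured, in Clcn4 8 of 27, in Cldn7 5 of 17, in Dnmt3a 4 of 18, in Snx22 3 of 18 and in Mmp11 2 of 19. The Ckm window is poor in CpGs, while the other windows hold many CpGs of which few were read in every library. All 975 windows placed in sparse unmethylated tiles held CCGG, the MspI site, which reads the same on both strands, against 52.8% of all 32851 windows. The placing needed measured CpGs, which lie near MspI sites, so this share was set by the placing.

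The 13125 tiles held a median of 5 measured CpGs and 9 CpGs listed in any library, and 47.1% had 10 or more listed CpGs. In sparse tiles with a mean level of 20% to 80% the medians were 3 measured and 5 listed CpGs, and 7.93% had 10 or more listed. Tiles with 10 or more measured CpGs and a mean under 20%, called dense unmethylated here, had medians of 16 measured and 32 listed CpGs. The rule holds the members to at most 9 measured CpGs, so their measured numbers are a description.

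Neighbouring tiles did not enter the rule. A dense unmethylated tile was next to 27.5% of the members, 35% of dense unmethylated tiles, 2.74% of sparse tiles at 20% to 80% and 0.321% of sparse tiles at 80% or more. Another member was next to 23.5% of members, and a member was next to 31.9% of dense unmethylated tiles. No tested tile lay on either side of 46.4% of members. A matched start site fell in 6.71% of members, against 29.1% of dense unmethylated tiles and 0.135% of sparse tiles at 20% to 80%. The median distance to a matched start site was 68.6 kb for members, 26.1 kb for dense unmethylated tiles, 128 kb for sparse tiles at 20% to 80% and 225 kb for sparse tiles at 80% or more. Most genes had no window that could be placed, so a tile without a matched start site cannot be said to lie outside promoters. Placing needed at least 6 matched CpGs, so these shares and distances depend in part on CpG number.

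Most members stood alone, and a few formed longer stretches. There were 10036 single tiles, 1356 pairs, 103 runs of 3, 10 of 4, 3 of 5, 1 of 6 and 1 of 7 adjacent tiles. The longest run was chr6:51118001-51125000, 7 tiles with 37 CpGs and a mean level of 6.72%, and its nearest matched start site was 295615 bp away. The run of 6 tiles at chr8:47376001-47382000 had a mean of 1.23%. Among the runs of 5, chr12:118390001-118395000 averaged 3.34%, and chr16:92695001-92700000 averaged 1.21% and held a start site of Runx1, a transcription factor of blood and epithelial development.

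The median level over the 13125 tiles was 0.905%, with quartiles of 0.215% and 5.19%. By mean level, 6760 tiles were under 1%, 3029 at 1% to 5%, 1423 at 5% to 10% and 1913 at 10% to 20%. In 139 tiles no methylated read was seen in any library, and 7189 (54.8%) stayed under 5% in each of the 18 libraries. At the other end, 2380 (18.1%) exceeded 20% in at least 1 library and 92 exceeded 50%. A member had a median of 214 reads in a library, at which 0 methylated reads allows a level of up to 1.40% (3 reads), and the smallest had 15. Reads were summed over the CpGs of a tile, so a read that covers several CpGs was counted at each. Copies made by PCR were not told apart either. The limits treat all these counts as independent and are therefore likely too narrow. Unconverted cytosine also cannot be told apart from methylated cytosine.

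The tiles near the 20% limit were unlike those near 0. The median range over the 18 libraries was 1.37 points under 1%, 7.09 at 1% to 5%, 16.9 at 5% to 10% and 27.8 at 10% to 20%. A range of 20 points or more was seen in 0 tiles under 1%, in 54 at 1% to 5%, in 461 (32.4%) at 5% to 10% and in 1495 (78.2%) at 10% to 20%. A range of that size is hard to reach at a low mean, so it follows in part from the level itself. Neighbours and start sites, which did not enter the rule, became fewer with level: a dense unmethylated neighbour was present for 34.8%, 27.0%, 16.9% and 10.3% of the 4 classes, and a matched start site for 10.9%, 3.80%, 0.984% and 0.836%. The median number of listed CpGs fell from 12 under 1% to 5 at 10% to 20%. Placing a start site needed at least 6 matched CpGs, so the fall in matched start sites was partly set by the placing.

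**Figure D1:**
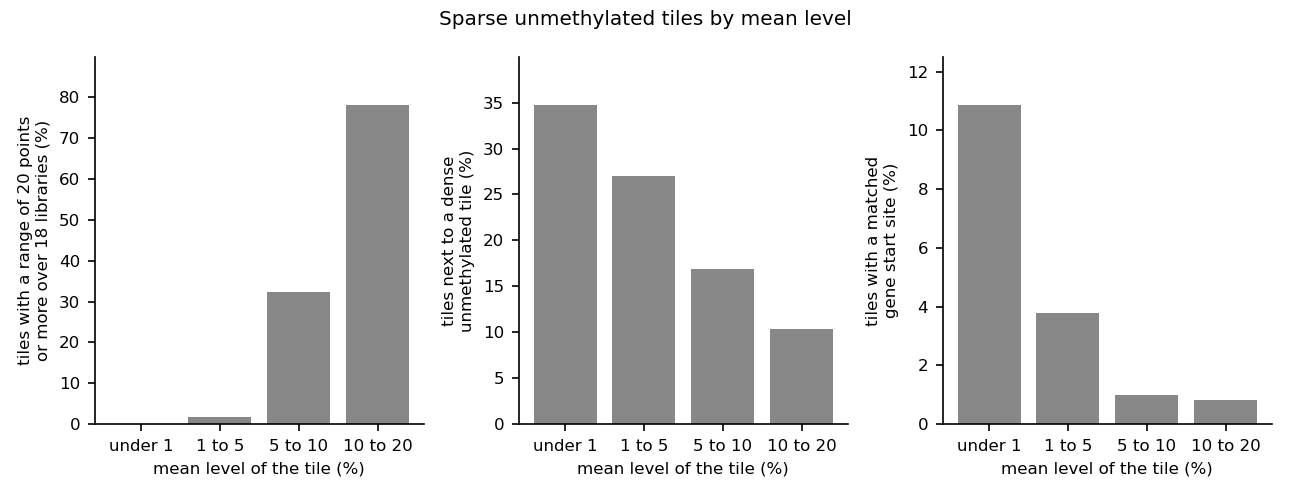
Bars show, for the 4 classes of mean methylation level (horizontal axis, percent), the percentage of sparse unmethylated tiles with a range of 20 points or more over the 18 libraries (left), with a dense unmethylated neighbour (middle) and with a matched gene start site (right). The first rises from 0 to 78.2%, the second falls from 34.8% to 10.3% and the third from 10.9% to 0.836%. Placing a start site needed at least 6 matched CpGs, so the third is partly set by the placing.

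Level also followed the number of measured CpGs. With 3 measured CpGs (3211 tiles) the median level was 2.61% and 2.31% of tiles had a matched start site. With 9 (1178 tiles) these were 0.354% and 14.2%. The placing favours tiles with more CpGs, so the share with a start site was partly set by it. Just under the 20% limit lay tiles at 19.9961%, 19.991% and 19.9876%, and just over it tiles at 20.0008%, 20.0025% and 20.0058%, so the limit cuts through a continuous range.

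Averaged over all members, the 2 virgin stem libraries were high: 4.54% at week 3 and 4.78% at week 9. The pregnant stem libraries had 3.21% at day 10, 3.00% at day 16 and 3.33% at day 19, and the retired stem library had 3.49%. The groups did not overlap, with means of 4.66 ± 0.170% (SD, n = 2) in virgin and 3.18 ± 0.167% (SD, n = 3) in pregnant stem cells. The difference was -1.47 points, or -0.969 points with pooled reads, -0.873 with a minimum of 10 reads and -0.641 over tiles with a mean under 10%. By class it was -0.139 points in tiles under 1%, -0.772 at 1% to 5%, -2.75 at 5% to 10% and -6.35 at 10% to 20%. Sparse tiles at 20% to 80%, which are not members, differed by -4.6 points, and dense unmethylated tiles by -0.163 points. These means describe tiles picked by their level and were given no test.

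The luminal cell types had other values. Progenitor libraries had 3.64% and 3.58% in virgin mice, then 3.80%, 3.82% and 4.51% at day 10, day 16 and day 19, and 3.43% in retired breeders. Mature libraries had 3.23% and 3.18% in virgin mice, then 2.96%, 3.13% and 3.82%, and 4.96% in retired breeders. The pregnant minus virgin difference was 0.434 points in progenitor cells, where every pregnant library was above both virgin ones, and 0.0973 points in mature cells, where the groups overlapped. The retired mature library had the highest mean of the 18, and in 328 tiles it stood at least 20 points above the median of the other libraries (231 of them with 50 or more reads in that library). The day 19 progenitor library did so in 243 tiles, week 9 virgin stem in 214 and week 3 virgin stem in 161. Depth moved with stage: the retired mature library had a median of 83 reads per member, the shallowest, against 287 and 351 in virgin stem and 136 to 236 in pregnant stem libraries. The part of depth in these means was not tested. The day 16 progenitor, day 19 and retired libraries also have the 6-column file format. At day 19 and in retired breeders it cannot be told apart from stage, while the day 16 stem and mature files have 4 columns. The part of the format in these means was not tested. Over tiles at 10% to 20%, libraries were correlated after each tile's mean was subtracted. The highest value was 0.569, for week 3 virgin stem with day 19 progenitor. Next came day 10 with day 16 mature (0.499) and day 10 with day 16 stem (0.485). The 2 virgin libraries had 0.293 in stem, -0.266 in progenitor and -0.03 in mature cells. Libraries of one cell type were thus not always the most alike, and cell mixture was not tested.

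**Figure D2:**
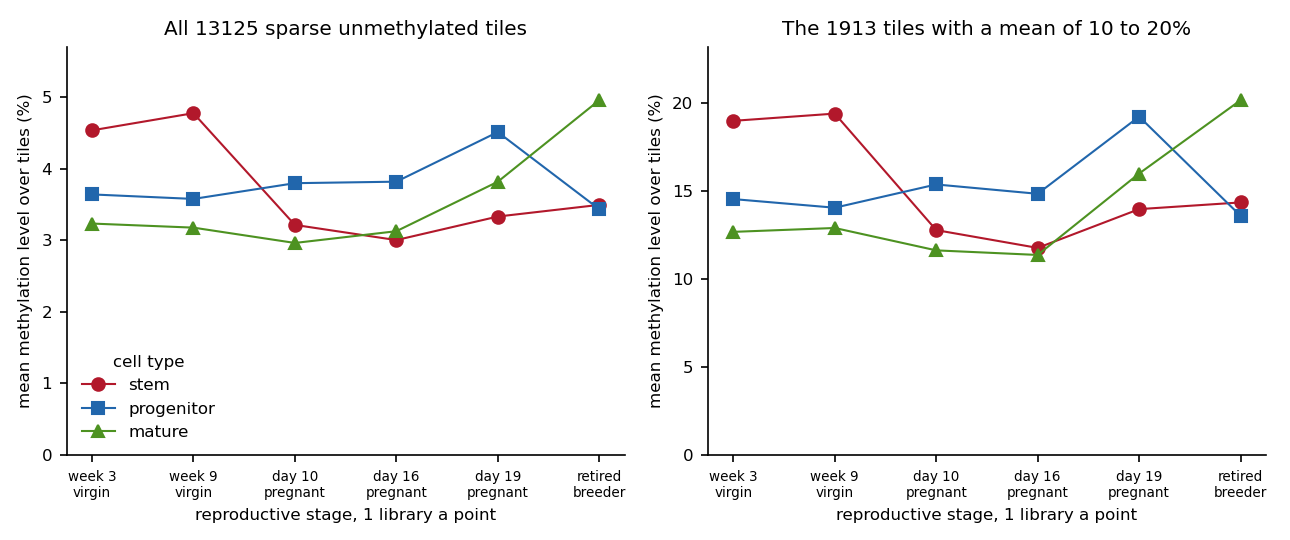
Mean methylation level (percent) over all 13125 sparse unmethylated tiles (left) and over the 1913 tiles with a mean of 10% to 20% (right), by reproductive stage, with 1 point per library and lines joining the 6 libraries of a cell type. Stem libraries go from 19.0% and 19.4% in virgin mice to 11.8% to 14.0% in pregnant mice in the right panel, while the retired mature library reaches 20.1%.

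The first tested question was which tiles changed with pregnancy within a cell type. Tiles were tested one by one by logistic regression with a quasi-binomial spread on the reads of all 18 libraries, and p-values were adjusted by the Benjamini-Hochberg method over all 77064 tiles. A call needed a difference of 10 points or more and an adjusted p under 0.05. In stem cells 35 sparse unmethylated tiles were called, 31 lower and 4 higher in pregnant than in virgin mice. That is 0.267% of members, against 0.308% of all tiles tested (0.227% lower and 0.0805% higher), so members were called about as often as tiles in general. Lower levels without any overlap between the 2 virgin and 3 pregnant stem libraries, and by 10 points or more, were seen in 706 members (5.38%, against 6.86% of all tiles), and higher ones in 94 (0.716%, against 2.55%). An unadjusted p under 0.05 was seen in 2032 members (15.5%, against 14.3% of all tiles). The number called was not stable. It ran from 0 to 149 when each library was left out in turn: 0 without the day 10 or the day 16 stem library, 1 without week 9 stem, 136 without week 3 stem (1.04% of members and also 1.04% of all tiles) and 149 without either virgin mature library (1.14%, against 1.88% of all tiles). The 2 virgin mature removals are 1 outcome, because a library left alone in its group adds nothing to the estimate of spread. The same holds for the 2 virgin progenitor removals. Without the day 19, day 10 and day 16 mature library the number called was 110 (0.838%, against 0.785% of all tiles), 23 (0.175%, against 0.218%) and 2 (0.0152%, against 0.0311%). It was 1 to 3 without any one of the 5 virgin and pregnant progenitor libraries (0.00762% to 0.0229%, against 0.00389% to 0.0208%). Without the day 19 stem library it was 43 (0.328%, against 0.278%). Limma on log2 ratios had 1541 members at an unadjusted p under 0.05, given here without the share of all tiles. The number called was also 0 with limma and 0 with reads thinned to the shallowest library. In the 11 libraries whose files have 4 columns, the other 7 being day 16 progenitor, all day 19 and all retired libraries, it was 46 (0.35%, against 0.239% of all tiles), of which 7 were among the 35.

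The 31 lower tiles were high in the virgin stem libraries. Their mean level was 24.98% and 32.8% in the virgin stem libraries, 5.13%, 5.20% and 8.02% in the pregnant ones and 7.44% in the retired one. Progenitor libraries ranged from 9.42% to 14.5% and mature libraries from 8.16% to 16.6%. In 18 of the 31 tiles both virgin stem libraries lay above all 16 other libraries, and in 29 the level in retired stem cells was closer to the pregnant mean than to the virgin mean. The median difference was -24.0 points (range -42.1 to -10.1), and adjusted p-values by the quasi-binomial fit ran from 0.0269 to 0.0485. Of the 31, 22 had a mean of 10% to 20%, 17 had only 3 or 4 measured CpGs, and 0 held a matched start site. The call required the difference in stem cells, and the 20% limit on the mean over all 18 libraries keeps the others low where virgin stem is high. These counts are therefore a description that the rule partly sets.

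**Figure D3:**
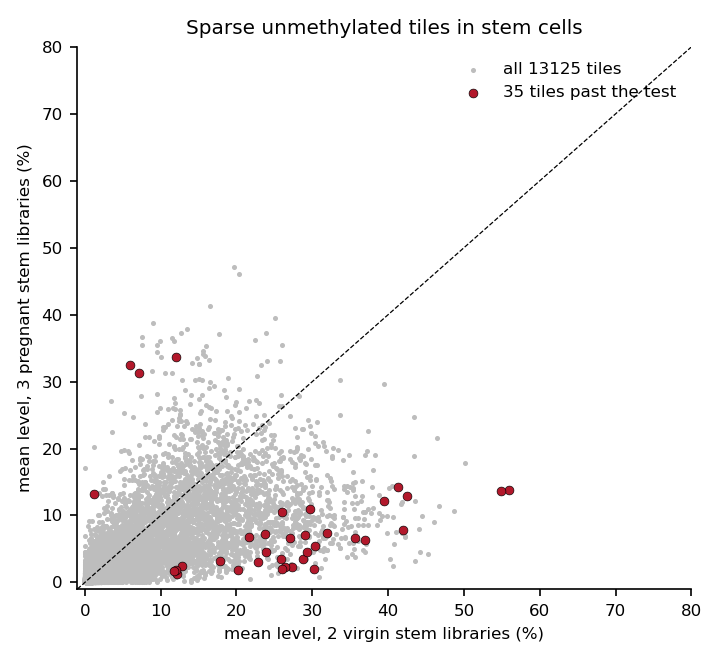
Mean level of each sparse unmethylated tile in the 2 virgin stem libraries (horizontal, percent) and the 3 pregnant stem libraries (vertical, percent), with 35 called tiles in red and a dashed line of equality. Of the called tiles, 31 lie below the line and 4 above it.

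The largest called fall was at chr1:139079001-139080000, a tile with 4 measured CpGs. Its level was 47.5% and 64.4% in virgin stem libraries, 16.9%, 15.2% and 9.47% at day 10, day 16 and day 19, and 7.06% in the retired stem library. Progenitor libraries had 15.4%, 7.29%, 9.31%, 0%, 24.5% and 0% in order of stage, and mature libraries 11.4%, 5.58%, 5.18%, 13.3%, 11.6% and 5.88%. Both virgin stem libraries were higher than all the others, the difference was -42.1 points and the adjusted p was 0.04. All 4 CpGs were at 50.5% to 59.7% in virgin and 7.76% to 19.7% in pregnant stem cells.

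At chr12:104452001-104453000, with 3 measured CpGs, virgin stem libraries had 34.95% and 74.8%, pregnant ones 9.89%, 5.52% and 25.5%, and the retired one 2.66%. The groups did not overlap, the difference was -41.2 points and the adjusted p was 0.0466. Outside stem cells the retired mature library was the highest, at 30%, and the week 3 mature library was at 4.25%. At chr11:100002001-100003000 virgin stem libraries had 31.7% and 52.3%, and pregnant ones 6.38%, 1.79% and 15.3%. The other 13 libraries lay between 2.25% and 20.6%, and the difference was -34.1 points with an adjusted p of 0.0457.

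Tiles further down the list repeated this pattern, with exceptions. At chr10:93879001-93880000 virgin stem libraries had 31.2% and 42.7% and pregnant ones 8.22%, 5.26% and 5.68%, a difference of -30.6 points (adjusted p = 0.04). Here the retired mature library, at 46.4%, was above both virgin stem libraries. At chr14:76772001-76773000 virgin stem libraries had 45.2% and 39.9% and pregnant ones 11.8%, 15.3% and 11.54%, a difference of -29.7 points (adjusted p = 0.0467), while day 19 progenitor reached 34.1% and retired mature 34.0%.

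The called tile nearest to a matched start site among the 31 lower ones was chr3:121427001-121428000. It lies 546 bp from the start of F3, which codes for tissue factor, the starter of blood coagulation. Virgin stem libraries had 16.8% and 30.6%, and pregnant ones 2.55%, 3.38% and 15.8%. The day 19 value came within 1 point of the week 3 value, and the other cell types stayed between 1.06% and 8.49%. The difference was -16.5 points and the adjusted p was 0.0482. Another called tile, chr7:20041001-20042000, lay 44558 bp from the start of Ckm.

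The 4 tiles that rose in stem cells were chr4:118782001-118783000 (26.6 points), chr19:54020001-54021000 (24.2), chr5:120113001-120114000 (21.7) and chr8:73415001-73416000 (12.0). At chr19:54020001-54021000, 1205 bp from the start of Shoc2, a scaffold protein of Ras signalling, virgin stem libraries had 9.69% and 4.51%, pregnant ones 38.8%, 24.6% and 30.3%, and the retired one 34.2%. Progenitor libraries lay between 0% and 21.7% and mature libraries between 0% and 12.4%, so pregnant and retired stem libraries were above all others (adjusted p = 0.04). At chr4:118782001-118783000 the CpGs differed among themselves: the first was at 0% in all libraries, and the other 4 averaged between 1.91% and 26.0% in virgin and between 26.7% and 58.4% in pregnant stem cells. Over the 4 tiles the mean was 6.57% in virgin and 27.7% in pregnant stem cells, with 22.4% in the retired library.

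**Figure D4:**
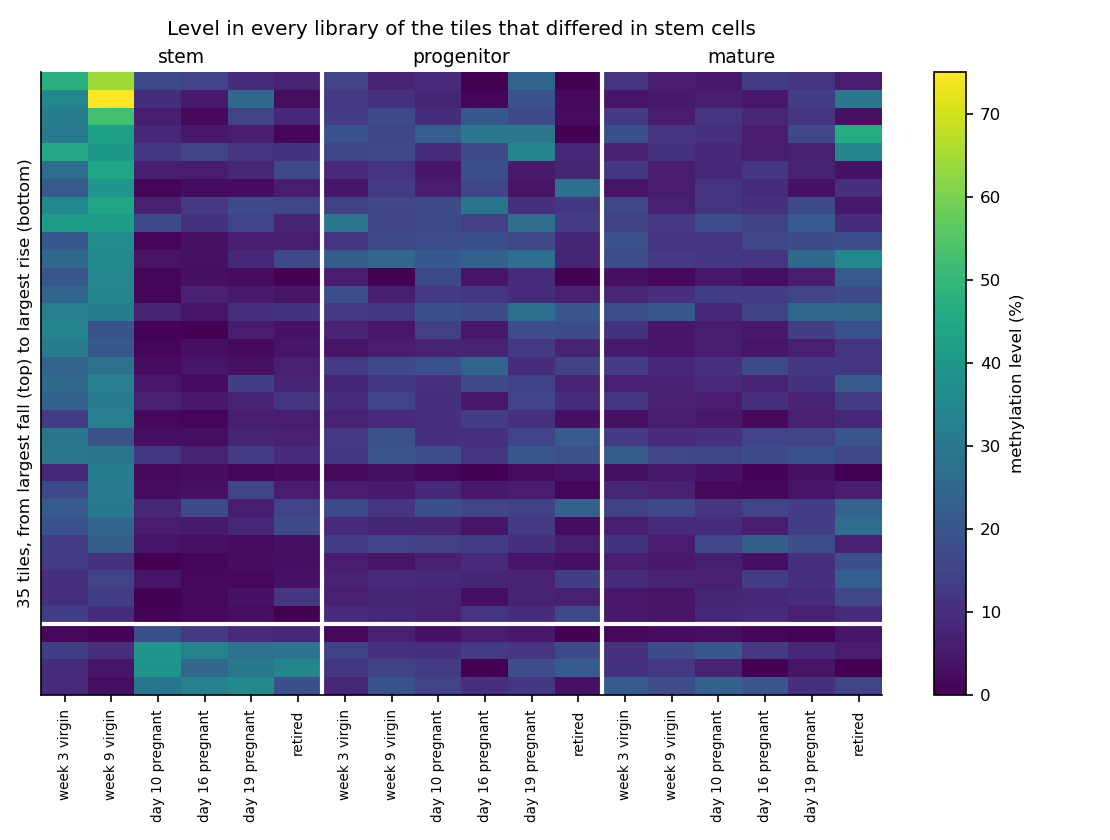
Methylation level (colour, percent) of the 35 called tiles in all 18 libraries, with tiles as lines ordered by difference and libraries as columns grouped by cell type and ordered by stage. In 25 of the upper 31 tiles the brightest cell lies in the first 2 columns, though in some tiles these are dim (13.98% and 9.45% at chr9:44460001-44461000). In the lower 4 tiles columns 3 to 6 are brighter than the first 2, but reach only 8.70% to 18.2% at chr8:73415001-73416000. The last column (retired mature) holds single bright cells up to 46.4%.

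The other pregnancy comparisons gave no call among members or among all tiles (background 0%). In progenitor cells 621 members (4.73%, against 3.76% of all tiles) had an unadjusted p under 0.05 in the quasi-binomial fit, with a smallest adjusted p of 1, and in mature cells 868 (6.61%, against 5.08%), with a smallest adjusted p of 0.950. With limma these counts were 652 and 1063, given without the share of all tiles, also with 0 called. Changes of 10 points or more without overlap were seen in progenitor cells in 78 members higher (0.594%, against 1.02% of all tiles) and 10 lower (0.0762%, against 0.472%). In mature cells they were seen in 16 higher (0.122%, against 0.348%) and 15 lower (0.114%, against 0.537%). The largest rise without overlap in progenitor cells was at chr13:38256001-38257000, where virgin progenitor libraries had 11.4% and 20.5% and pregnant ones 28.1%, 38.2% and 44.5%. That difference of 20.9 points had an adjusted p of 1. The largest fall was -16.2 points at chr5:148113001-148114000, with virgin levels of 18.0% and 31.8% and pregnant levels of 13.2%, 6.67% and 6.25% (adjusted p = 1). In mature cells the largest rise without overlap was at chr9:96957001-96958000, from 15.7% and 5.36% to 18.0%, 33.7% and 28.6%, a difference of 16.2 points (adjusted p = 0.95). The largest fall in mature cells was at chr2:167874001-167875000, from 13.2% and 33.2% to 5.47%, 4.29% and 10.1%, where the retired mature library had 45.5% (adjusted p = 0.95).

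Whether the pregnancy effect differed between cell types was tested as an interaction over all tiles, and no member and no other tile was called. The comparisons of stem with progenitor, stem with mature and progenitor with mature had 1539, 1602 and 774 members at an unadjusted p under 0.05 in the quasi-binomial fit. The share of all tiles at that p was not counted, so these numbers cannot be set against a background. The smallest adjusted p-values of that fit among members were 0.172, 0.0752 and 0.998.

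Cell types were compared within stages. No member was called between stem and progenitor cells, between stem and mature cells or between progenitor and mature cells, and the background was 0% in each. Unadjusted p-values under 0.05 were seen in 1367, 1821 and 1225 members by the quasi-binomial fit (10.4%, 13.9% and 9.33%, against 9.28%, 11% and 5.96% of all tiles). By limma they were seen in 908, 1153 and 1045 members, given without the share of all tiles. In the same order, the smallest adjusted p-values of the quasi-binomial fit were 0.167, 0.0669 and 0.757. Without the stage term 2 members (0.0152%, against 0.00779% of all tiles, 6 in number) were called higher in stem than in mature cells, chr4:126168001-126169000 (13.1 points) and chr7:6734001-6735000 (12.2 points).

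The tile with the largest excess in stem over progenitor cells at all 6 stages was chr10:122252001-122253000. Stem libraries had 26.1%, 25.7%, 33.3%, 44.1%, 29.0% and 39.4% in order of stage. Progenitor libraries had 8.30%, 11.6%, 6.22%, 1.21%, 15.1% and 0%, and mature libraries 3.95%, 20.8%, 10.6%, 2.84%, 12.0% and 4.31%. No stem library overlapped any other, with a difference of 25.9 points and an adjusted p of 0.251. Stem over mature cells was largest at chr6:67484001-67485000 (26.9 points, adjusted p = 0.272), where stem libraries had 13.1%, 26.1%, 51.4%, 52.0%, 38.2% and 40.4% and mature ones 3.63%, 19.6%, 19.2%, 5.39%, 8.74% and 3.03%. A pair of tiles 3 kb apart also stood high in stem cells: chr8:94326001-94327000 was second for stem over progenitor (20.9 points, adjusted p = 0.36), and chr8:94330001-94331000 the third for stem over mature cells (24.9 points, adjusted p = 0.264). In the other direction, chr12:8919001-8920000 was lower in stem than in progenitor cells (-16.3 points, adjusted p = 0.48), and chr7:25176001-25177000 lower in stem than in mature cells (-13.6 points, adjusted p = 0.272).

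Retired breeders were compared with virgin and with pregnant mice over the 3 cell types, with 1 retired library in each. No member and no other tile was called by the quasi-binomial fit (background 0% in both), with 379 and 316 members at an unadjusted p under 0.05 (2.89% and 2.41%, against 5.29% and 4.83% of all tiles) and smallest adjusted p-values of 0.886 and 0.946. By limma these counts were 4422 and 2020 members (33.7% and 15.4%, against 16.4% and 13.8% of all tiles), so the fits placed members on opposite sides of the background. Limma called 2 members (0.0152%) in each comparison, against 0.0493% and 0.0843% of all tiles. These were chr6:42177001-42178000, lower in retired than in virgin (-16.9 points) and than in pregnant mice (-16.2 points), chr8:86568001-86569000, higher than in virgin mice by 26.4 points, and chr19:18788001-18789000, lower than in pregnant mice (-10.7 points). For limma, 1 was added to the methylated and unmethylated counts, and libraries were not weighted by depth. A tile with 0 methylated reads therefore takes a value set by its depth. Such tiles were 52.9% to 56.9% of members in retired libraries, with medians of 83 to 113 reads. In virgin libraries they were 17.3% to 29.6%, with medians of 242 to 541 reads. The part of depth in the limma counts was not tested.

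The widest ranges among tiles with 50 or more reads in each library came mostly from the retired mature library. At chr2:60535001-60536000, with 6 CpGs, it had 70.9%, against 36.6% in the next library (day 19 progenitor) and 0.295% in the lowest (day 10 stem). It had 72.3% at chr15:76525001-76526000 and 71.7% at chr18:50225001-50226000. At chr15:79856001-79857000 the week 9 virgin stem library was highest with 62.2%, followed by retired mature with 50.6%.

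Tiles with a matched start site had lower levels than the other members. Their median level was 0.234% against 1.06% without a matched start site, and 735 of 880 (83.5%) were under 1%, against 49.2% of the others. In 16 the mean was 10% to 20%, in 13 the range was 20 points or more, and in none was a call made in any comparison. The mean pregnant minus virgin difference in stem cells was -0.179 points in these tiles and -1.57 points in the others. Levels depend on the members' definition, so the contrast between the 2 sets is given without a test. Start-site members held a median of 21 listed CpGs, against 9 in the others. Members with 20 or more listed CpGs, with or without a start site, had a median level of 0.280%, and 77.8% were under 1%. The part of CpG number in the contrast was not tested. The genes named in this and the next paragraphs were chosen after their values were seen.

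Examples of start-site tiles with low levels follow, picked for the known roles of their genes. The tile of Cldn7 had a mean level of 0.443%, with 8 libraries above 0% and a highest value of 4% in the retired progenitor library. Ocln (occludin, another tight junction protein) had 0.296% and Crb3 (a polarity protein of the apical membrane) 0.243%. Tnfrsf11a, which codes for RANK, the receptor through which progesterone-induced RANKL acts on mammary cells, had 0.648%, with a range of 0% to 2.07%. Greb1, a target of the oestrogen receptor, had 0.358%, and Runx1 0.405%. Mmp11 had 0.0606%, with 0% in 13 libraries and at most 0.315%. The tile of Lad1, which codes for ladinin, a protein of the epithelial basement membrane, had 0.742% and 1.84% in virgin stem libraries and 0% in the 3 pregnant ones (adjusted p = 0.134). Higher single values were seen in the tiles of Nrp1 (neuropilin, a co-receptor), at 10.1% in the day 16 stem library, and Pgf (placental growth factor), at 7.69% in the retired progenitor library.

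Of the lists of 13 luminal and hormone genes, 11 basal genes, 7 cell cycle inhibitors and 8 DNA methylation genes, 1, 1, 3 and 6 had a placed start site, and only Dnmt3a had one in a sparse unmethylated tile. Dnmt3a codes for a de novo DNA methyltransferase, and the window shown starts one of its transcripts. The tile averaged 3.73%, between 0.749% (day 10 progenitor) and 8.57% (day 16 progenitor). Nearly all of it came from 1 CpG, 31 bp before the start, at 8.88% over the libraries, while the 3 CpGs 111 to 118 bp before it were at 0% to 1.31%. Virgin stem libraries averaged 4.44% and pregnant ones 4.20% (adjusted p = 0.941).

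Ckm codes for the creatine kinase of muscle, an enzyme that buffers ATP. Its tile was the most methylated start-site member, with a mean of 19.5%. Virgin stem libraries had 41.6% and 23.8%, pregnant ones 4.55%, 2.10% and 11.0%, and the retired one 3.5%. Progenitor libraries had 21%, 23%, 17.8%, 18.2%, 46.7% and 14.3% in order of stage, and mature libraries 17.8%, 11.8%, 11.7%, 18.7%, 25.4% and 38.0%. The virgin and pregnant stem libraries did not overlap, with 32.7 ± 12.6% (SD, n = 2) and 5.90 ± 4.62% (SD, n = 3), but day 19 progenitor was higher than either virgin stem library and the difference of -26.8 points was not past the test (adjusted p = 0.119). All 8 measured CpGs of the tile, 6 of them in capitals in the sequence above, were lower in pregnant than in virgin stem cells, with 37.7% and 4.15% at the CpG 1 bp before the start.

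In 2 other start-site tiles of high mean level the libraries lay closer together. The tile of Tom1, which codes for an endosomal sorting protein, had a mean of 18.8% and stayed between 14.1% and 23.6% in all 18 libraries. Gmpr, which codes for a GMP reductase, had 18.6% and stayed between 10.6% and 24.6%. The tile of Gm35510 averaged 21.0% in virgin stem cells and 12.9% in pregnant ones (adjusted p = 0.0974), and that of 1600014C23Rik, with a mean of 9.49%, averaged 15.1% and 3.53% (adjusted p = 0.0869). Kcnj10, a potassium channel gene, had 16.0%, with 35.9% in the retired mature library as the highest value.

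The Snx22 tile shows what a tile level can hide. Snx22 codes for a sorting nexin, a protein of membrane traffic. Its level in virgin stem libraries was 8.87% and 5.46%, and in pregnant ones 18.5%, 31.5% and 11.6%, the largest rise among start-site tiles (13.4 points, adjusted p = 0.265). The 3 CpGs printed in capitals, 41 to 67 bp before the start, were at 0% to 0.652% over the libraries, and the remaining one, at -386 bp from the start, at 86.4%. That distant CpG was at 95% in virgin and 92.3% in pregnant stem cells, so no single CpG rose. What differed was its share of the tile's reads, which was 9.85% and 5.09% in the virgin stem libraries and 21.8%, 34.3% and 11.6% in the pregnant ones. Taken as the mean of its CpG levels, the tile differed by -0.811 points.

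**Figure D5:**
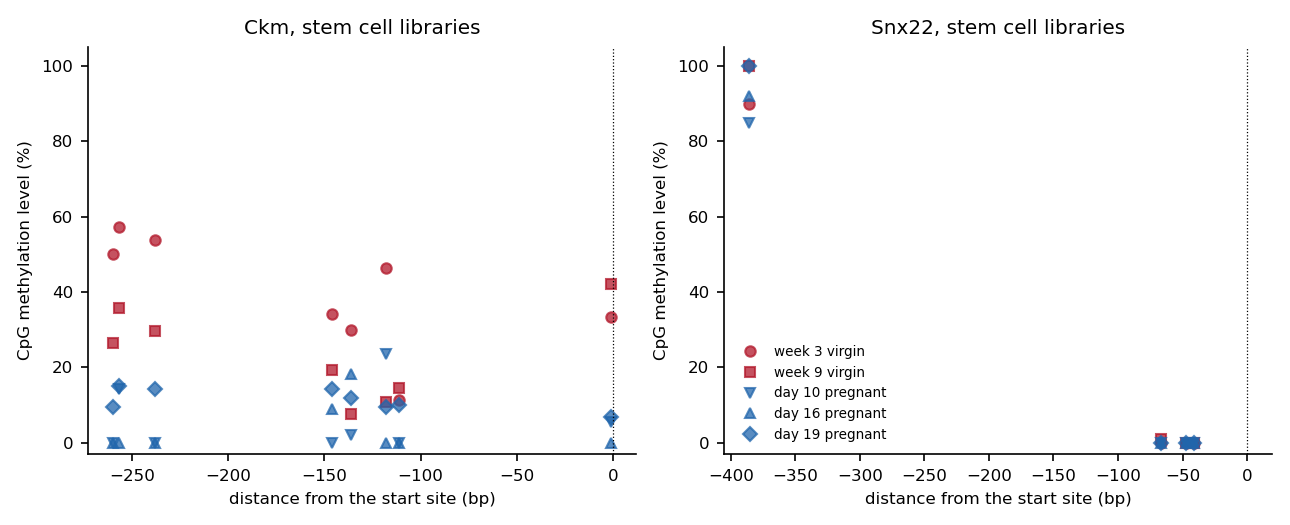
Methylation level (percent) of each measured CpG of the Ckm tile (left) and the Snx22 tile (right) in the virgin and pregnant stem cell libraries, by distance from the gene's start site (bp, negative before the start), with 1 symbol per library. At Ckm the virgin libraries lie above the pregnant ones at most CpGs, and at Snx22 3 CpGs lie near 0% and the distant one far above them in all 5 libraries.

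Tiles of this mixed kind were few over all members and lay mostly in the highest class. A CpG with a mean of 50% or more and another of 10% or less were found together in 218 members (1.66%). Of these, 173 were in the class of 10% to 20%, which holds 1913 tiles. Their median level was 14.7%, from a highest CpG at a median of 66.2% and a lowest at 0.304%. Their tile level differed between pregnant and virgin stem cells by a median of 3.04 points in either direction, and by 2.69 points as the mean of CpG levels. None of the 35 called tiles was of this kind. As the mean of CpG levels all 35 kept their sign, and 29 of the 31 lower and 4 of the 4 higher tiles kept 10 points or more.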

How the data were processed

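Libraries were read by reduced representation bisulfite sequencing after MspI digestion, per the labels' protocols. The deposited files list, per CpG, the number of methylated reads over all reads (unit: other), on mm9 per the submitters' processing notes; 7 of the 18 files also hold a strand and a score deposited by the authors, which equals 1000 times the methylated share and was used only for a check. The aligner, like the caller, is not given in the sources used here. Read counts summed over the listed CpGs of a library were 17513287 to 117922522, with a median of 10 to 70 per CpG. In these sums a read that covers several CpGs is counted at each.

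Reads were summed per 1000 bp tile over CpGs that reached 5 reads in every library. All 77064 tiles with 3 or more such CpGs were fitted by quasi-binomial logistic regression with a dispersion moderated across tiles and held at 1 or above, with F tests and Benjamini-Hochberg adjustment over all tiles. Pregnancy and retirement were tested in a model of the 9 groups, and cell types with stage as a block, which pairs the libraries of a stage. The fit was tested on simulated data. The members and lists were chosen with earlier results of these data known.

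Named tiles are the called members, the 3 largest rises and falls without overlap per cell type, the 5 widest ranges with 50 reads, the tiles at the 20% limit, the deepest low tiles, the longest runs and the largest differences between cell types with the same sign at all 6 stages. The plan was to give gene names only from an mm9 annotation, which was not used here. Instead, RefSeq promoter windows (GRCm38.p6) were placed, after the data were seen, by their CpG spacing: at least 6 CpGs matched, no listed CpG of the window off a match, and neighbouring genes shifted alike to within 1000 bp. Of the matched windows 99.6% had exactly the shift of a neighbouring gene, and 3 were dropped. The table's coordinates were not used. Distances are to placed start sites.

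The settings varied were the read minimum (10), the tile length (500 bp), the difference (5 points), the level limit (10%), limma on log2((methylated + 1)/(unmethylated + 1)), thinned reads, removal of the CpGs of highest coverage, the mean of CpG levels, pooled reads, no stage term and each library left out. The fit of 4-column files alone was chosen after seeing the data. Python 3.11.15 (numpy 2.4.6, scipy 1.17.1, pandas 2.3.3) and R 4.3.3 with limma 3.58.1 were used.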

Additional observations from a re-analysis of the deposited data

Results flagged for a closer look

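In the following values pregnancy went in opposite directions in a pair of cell types, with no overlap between virgin and pregnant libraries in either. The pregnant minus virgin difference of the mean level of all members was -1.47 points in stem and 0.434 points in progenitor cells, which differ by -1.91 points. For members at 1% to 5%, 5% to 10% and 10% to 20% the same gap was -0.987, -3.69 and -8.53 points. These gaps between means were not tested.

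For single tiles the gap was tested as an interaction in the quasi-binomial fit, and none passed an adjusted p of 0.05. Between stem and progenitor cells it was 38.3 points at chr5:64218001-64219000 (adjusted p = 0.352), -40.6 at chr10:93879001-93880000 (0.172), -34.7 at chr13:38256001-38257000 (0.239), -27.6 at chr2:167874001-167875000 (0.274), 37.4 at chr6:67484001-67485000 (0.308), -27.1 at chr18:50225001-50226000 (0.259) and -13.0 in the start-site tile of Gm35510 (0.224). Between stem and mature cells it was 32.1 points at chr19:54020001-54021000 (adjusted p = 0.0752), -45.1 at chr12:104452001-104453000 (0.231), -51.2 at chr9:96957001-96958000 (0.112) and -18.3 at chr7:25176001-25177000 (0.221). Between progenitor and mature cells it was 24.6 points at chr2:167874001-167875000 (adjusted p = 0.998).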

How the results depend on the processing

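Of 291 alternative values for 14 results, 262 stayed near the main value and 29 moved. Counts were compared by their ratio and other values with the spread or confidence interval of the main result. The sign was not compared, and the mature difference changed sign without 1 library while counted as near. Many of the 262 are counts of 0 calls that stayed at 0. The 35 members called for pregnancy in stem cells became 10 with a mean level under 10%, 6 with a minimum of 10 reads (6972 members tested), 3 with tiles of 500 bp, 0 with thinned reads and 0 with limma, and ran from 0 to 149 without 1 library. The 35 were among the 149, and 27 of them were among the 136 without week 3 stem, 21 among the 43 without day 19 stem and 18 among the 23 without day 10 mature. With a difference of 5 points 38 were called, and 35 without the CpGs of highest coverage. The counts in this section are given without the share over all tiles, so they show only how the number of called members moved. Pregnancy in mature cells ran from 0 to 2 called without 1 library, the 2 being chr19:6300001-6301000 (-25.2 points) and chr19:57091001-57092000 (-16.4 points) without the week 3 mature library. Without the stage term, which is the pairing or replicate block of libraries of one stage, 2 members were called between stem and mature cells and 0 in the other cell-type comparisons. With limma 2 were called for retired minus virgin and 2 for retired minus pregnant. A fit pairing virgin with pregnant libraries was not possible because their stages differ. With a minimum of 10 reads the median level was 0.459%, the share under 5% was 83.6% and under 10% 91.1%, and the stem difference was -0.873 points; it was -0.969 with pooled reads and -0.641 under 10%. Without 1 library these lay at 0.888% to 0.929%, 74.4% to 74.9%, 85.2% to 85.8% and -1.59 to -1.35 points, and the mature difference at -0.160 to 0.267 points. Where a group kept 1 library, it was assumed to vary like the others. Thinning leaves fewer reads, a minimum of 10 reads leaves fewer tiles, and 4.20% of member levels rest on under 50 reads.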
